A study of Mus musculus with 46 samples.

Results

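The 10 genes described here make up or regulate the p53, Ink4 and Cip senescence barrier of mouse fibroblasts. They were followed while the fibroblasts were turned into induced pluripotent stem cells (iPSC). They were chosen by symbol as Trp53, Mdm2, Cdkn1a, Cdkn1b, Cdkn2a, Cdkn2b, Ccng1, Zmat3, Sesn2 and Trp53inp1. The rule uses no measured value, but the choice was made with earlier results of these data known. All 10 were found among the 37108 genes of the gene table, and all 10 were among the 16842 that passed the filter on low values. Their 19 transcripts were found among the 106520 transcripts of the iPSC table. The starting cells were mouse embryonic fibroblasts (MEF) from mid-gestation embryos of OG2 males, which carry an Oct4-GFP reporter, and females of another strain. They were infected with retroviruses for Oct4 together with native Nanog (NanogWT) or with NanogBiD, called NanogN70 in the labels, in which a BRG1-binding piece of SS18 is fused to the front of Nanog. Libraries were made at D0, after the infection, and then on D1, D3, D5, D7, D8, D10 and finally D12, with 2 per combination and day and 1 for NanogBiD at D8, which gave 31. Both combinations were kept in one reprogramming medium until D7 and then in N2B27 with 2iL, so day and medium cannot be told apart from D8 on. References were 2 libraries of uninfected MEF and 1 of mouse embryonic stem cells (mES) of the OG2 background. The iPSC table held 6 NanogBiD and 6 NanogWT samples labelled iPSC1 or iPSC2, with the same MEF and mES samples. Both names occur in both combinations and are called lines here, though the labels do not say what they stand for. By the column headers, all iPSC1 samples were at later passages than all iPSC2 samples, and mES at a later passage than both. The libraries were made from whole cultures, with no sort for the cells that responded, and the labels do not say which samples came from separate cultures, so p-values measure only the spread between these samples.

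p53, encoded by Trp53, is a transcription factor that responds to DNA damage, oncogene activity and other stress, and MDM2 is the ubiquitin ligase that keeps it low. Among the genes p53 switches on are Mdm2 itself, Cdkn1a, which encodes the Cip inhibitor p21 of cyclin-dependent kinases, Ccng1 (cyclin G1), Zmat3 (an RNA-binding zinc finger protein), Sesn2 (sestrin 2, a brake on mTORC1) and Trp53inp1 (a stress-induced cofactor of p53). Cdkn2a holds overlapping genes in one locus: p16Ink4a inhibits CDK4 and CDK6, and p19Arf, read in another frame, inhibits MDM2. Cdkn2b encodes the neighbouring Ink4 inhibitor p15Ink4b, and Cdkn1b the Kip inhibitor p27. In cultured fibroblasts the p53 and Ink4 pathways enforce senescence and arrest, while Mdm2 acts against p53. The pathways are known as a barrier to the making of iPSC. In mm10 the Cdkn2a gene spans chr4:89274473-89294619 and Cdkn2b chr4:89306289-89311032, on the same chromosome as Sesn2 (chr4:132492804-132510456) and Trp53inp1 (chr4:11156441-11174379). Trp53 spans chr11:69580348-69591873, Ccng1 chr11:40748552-40755309, Mdm2 chr10:117688875-117710758, Cdkn1a chr17:29090979-29100722, Cdkn1b chr6:134920401-134925525 and Zmat3 chr3:32334792-32365665.

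Values are FPKM, fragment numbers scaled by transcript length and library size, so levels are per length and can be set side by side between genes. Differences are on the scale log2(FPKM + 1). A gene was called where limma gave a Benjamini-Hochberg adjusted p under 0.05 over all genes tested. Total FPKM was 370030 to 462190 per time-course library. Relative depth, read from the steps of low values, was 0.872 to 1.10 in the libraries of D0 to D7 and 0.810 to 1.02 in those of NanogBiD at D8 to D12, but 1.85 to 3.18 in those of NanogWT at D8 to D12. From D8 on, combination and depth cannot be told apart. The starting cells carried their label: all 6 fibroblast markers (Col1a1, Col1a2, Thy1, Pdgfrb, Postn and Fbn1) were above 1 FPKM in both MEF libraries, and of 6 pluripotent cell markers 5 were listed at 0. The D0 cultures had less of the fibroblast markers than MEF, with sums of 2061 to 2487 against 5544 and 6067 FPKM. In the reference annotation, Cdkn2b overlaps the long noncoding gene Gm12610 and Zmat3 overlaps 4930429B21Rik. The use of strand in the counting is not stated, so the levels of these 2 members are uncertain to that extent.

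Promoter sequence is shown for the members whose starts differ in a way the later results refer to. RefSeq windows of 250 bases before a start (GRCm38.p6, the patch release of mm10) were found for 8 of the 10 members, 10 windows in all, and none matched Zmat3 or Trp53inp1. A p53 response element, searched as a pair of adjacent consensus decamers with at most 1 mismatch, was present at Ccng1 and at the upstream start of Cdkn1a, and in 0.0761% of the 32851 windows of all genes. The 120 bases before the upstream Cdkn1a start (chr17:29090859-29090978, plus strand) hold it 51 to 32 bases before the start, and the Ccng1 element lies 195 to 176 bases before its start (window chr11:40755287-40755491, minus strand). Elements after a start, more than 250 bases before it, with a spacer or with more mismatches were outside this search. The lack of a hit therefore does not show that a member has none. Capitals mark the element found.
Cdkn1a, upstream start: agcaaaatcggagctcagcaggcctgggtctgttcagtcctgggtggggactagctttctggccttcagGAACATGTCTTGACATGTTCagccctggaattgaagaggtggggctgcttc
Ccng1: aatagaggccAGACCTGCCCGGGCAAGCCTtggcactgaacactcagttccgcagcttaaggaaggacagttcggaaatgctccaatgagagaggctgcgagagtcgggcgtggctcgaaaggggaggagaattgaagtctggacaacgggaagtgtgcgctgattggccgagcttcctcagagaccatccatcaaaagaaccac
The Cdkn2a and Cdkn2b starts lie in a row on the minus strand of chromosome 4, with the p16Ink4a start 12427 bases from that of p19Arf and the p19Arf start 16413 bases from that of Cdkn2b. They are shown because the values below are given for Cdkn2b and, in iPSC, for each of the 2 Cdkn2a transcripts. Capitals mark the GC box GGGCGG, searched on both strands and present in 32.7% of all windows.
p19Arf start, chr4:89294620-89294739: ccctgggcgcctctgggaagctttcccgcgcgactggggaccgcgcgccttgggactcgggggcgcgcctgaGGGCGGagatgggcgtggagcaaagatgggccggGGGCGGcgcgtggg
p16Ink4a start, chr4:89282193-89282312: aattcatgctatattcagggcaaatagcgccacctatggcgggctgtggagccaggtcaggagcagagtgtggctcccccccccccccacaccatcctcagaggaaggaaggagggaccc
Cdkn2b start, chr4:89311033-89311152: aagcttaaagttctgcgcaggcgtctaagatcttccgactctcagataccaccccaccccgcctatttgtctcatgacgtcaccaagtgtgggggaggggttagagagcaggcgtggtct
The p19Arf window held 40 CG dinucleotides in 250 bases and 2 GC boxes. The p16Ink4a window held 7 CG and no GC box, and the Cdkn2b window 12 CG and no GC box. The median over all windows was 6 CG.

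The first comparison set the cultures at the end of the infection, D0, against uninfected MEF. No sample was mock-infected or given an empty vector, so infection, the factors and time in culture cannot be told apart here. Of the p53 target genes among the members, Mdm2, Ccng1 and Trp53inp1 were higher at D0 in both combinations, and Zmat3 and Cdkn1a in 1 each. Mdm2 was at 49.8 and 45.1 FPKM with NanogBiD and 46.8 and 39.3 with NanogWT, against 16.6 and 24.9 in MEF. Every D0 library was above both MEF libraries, with log2 differences of 1.18 (SE 0.17, adjusted p = 3.27e-05) and 1.04 (SE 0.17, adjusted p = 0.000222). Ccng1, the most abundant member, was at 542 and 635 FPKM with NanogBiD and 414 and 677 with NanogWT, against 140 and 224 in MEF (log2 differences of 1.72 and 1.58). Trp53inp1 was at 49.1 and 51.3 against 18.6 and 16.3 FPKM with NanogBiD (log2 difference of 1.48), and at 25.3 and 44.3 with NanogWT (0.91). Zmat3 passed with NanogBiD at a log2 difference of 0.60 (adjusted p = 0.0291), and with NanogWT the difference was 0.49 (adjusted p = 0.0952). Cdkn1a passed with NanogWT at 303 and 251 against 128 and 197 FPKM (log2 difference of 0.79, adjusted p = 0.00173), and with NanogBiD it was at 201 and 217 (0.40, adjusted p = 0.0774). The inhibitors Cdkn2b and Cdkn1b were lower at D0 than in MEF. Cdkn2b was at 19.7 and 21.7 FPKM with NanogBiD and 34.5 and 23.2 with NanogWT, against 52.2 and 51.9 (log2 differences of -1.29 and -0.86). Cdkn1b differed by -0.55 and -0.64. Trp53 itself (45.6, 45.7, 56.1 and 35.3 FPKM against 61.4 and 60.4), Cdkn2a and Sesn2 did not pass in either combination, with log2 differences of -0.41 and -0.44 for Trp53. Thus 6 of 10 members passed with NanogBiD (4 higher, 2 lower), where 29.9% of all genes tested did, and 6 of 10 with NanogWT (4 higher, 2 lower), where 19.4% did. Both comparisons share the MEF libraries. Of 11 other p53 targets of apoptosis, 7 rose with NanogBiD and 4 with NanogWT and none fell. Eda2r, a death receptor of the TNF receptor family, rose by 2.78 and 2.37 on the log2 scale and Fas by 2.53 and 2.13. The list's median was 0.57 and 0.33, against 0 over all genes. Of 14 targets of arrest, repair and stress, 3 rose and 3 fell with NanogBiD and 2 rose and 2 fell with NanogWT, with Rrm2b at 1.16 and 0.91 and Gadd45a at -1.72 and -1.61. Without the first replicate of D0 and MEF the Cdkn1b differences were -0.14 and -0.17 and that of Cdkn1a with NanogWT was 0.35. Without the second, Trp53inp1 with NanogWT was at 0.42 and Cdkn2b at -0.58, and none of these passed, nor did Zmat3 without either replicate. Macrophage markers were also higher at D0 than in MEF (3 of 4 called in each combination, summed 7.61 to 16.7 against 1.50 and 3.55 FPKM), as was Kdr of the endothelial list, and the part of these in the result was not tested.

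**Figure D1:**
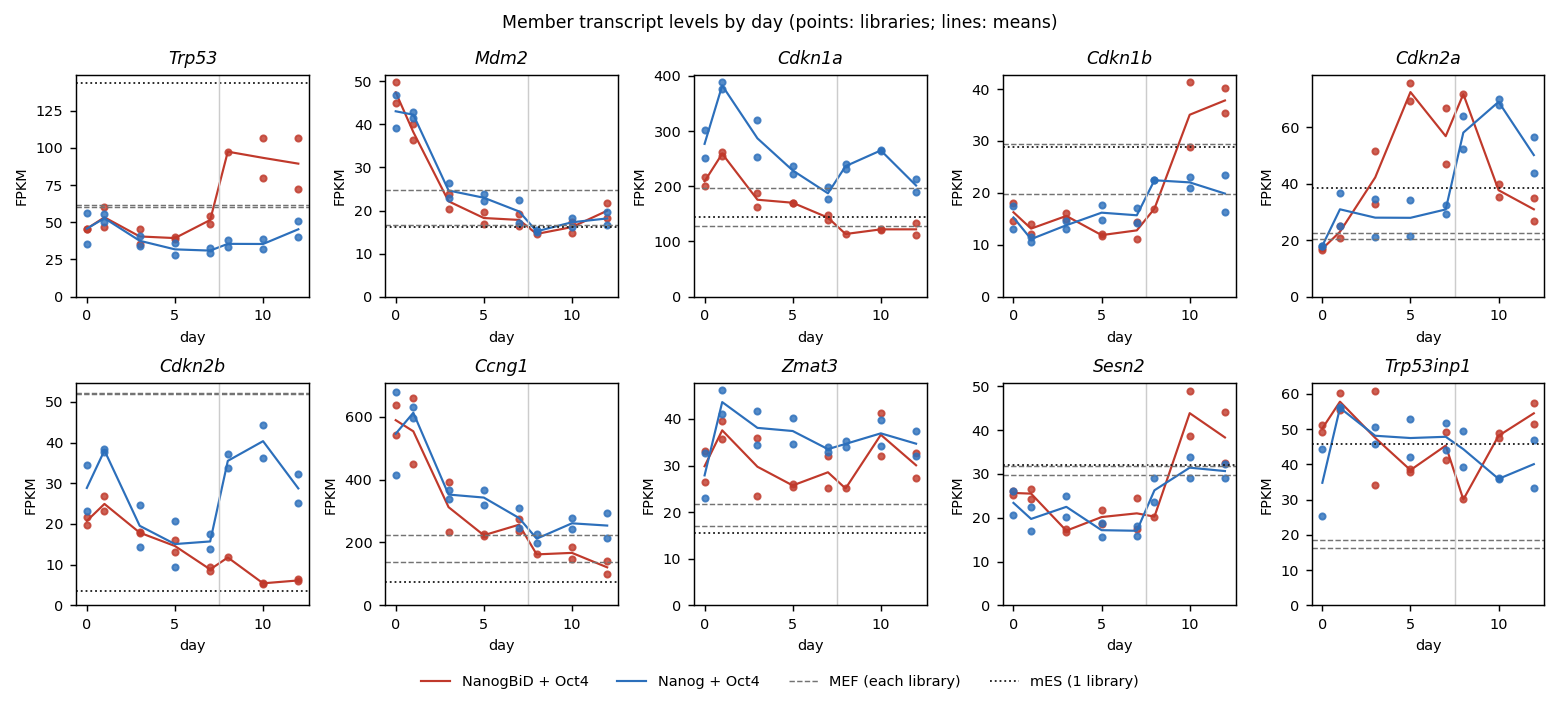
FPKM of each of the 10 members (vertical axes) by day after infection (horizontal axes), with 1 point per library, lines through the means (NanogWT is labelled Nanog), dashed lines for the 2 MEF libraries and a dotted line for the mES library; the vertical grey line marks the change of medium after D7. Mdm2 and Ccng1 start above MEF and fall in both combinations, the Cdkn1a points of NanogBiD lie below those of NanogWT on every day, and the mean curves of Cdkn2a cross between D1 and D3 and again between D8 and D10.

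From D0 on, Mdm2 and Ccng1 came down in both combinations. Mdm2 passed from 36.3 and 40.1 FPKM at D1 through 20.4 and 23.9 at D3 to 16.5 and 19.2 at D7 with NanogBiD. With NanogWT it was at 41.5 and 42.9, then 22.9 and 26.3, then 17.0 and 22.5. By D7 it lay within or near the range of MEF and near the 16.3 FPKM of mES. The log2 differences of D7 from D0 were -1.37 (SE 0.15, adjusted p = 5.26e-07) with NanogBiD and -1.09 (SE 0.15, adjusted p = 8.86e-06) with NanogWT, and at D12 they were -1.21 and -1.20. The combinations did not differ in Mdm2 on any day with 2 libraries each (log2 differences of -0.32 to 0.14, lowest adjusted p = 0.171). Ccng1 fell by 1.19 and 0.94 on the log2 scale from D0 to D7. It then went on to 101 and 141 FPKM at D12 with NanogBiD, below the 213 and 295 of NanogWT and nearer to the 75.7 of mES. The fall from D0 to D12 was larger with NanogBiD (-2.29) than with NanogWT (-1.08), by an interaction of -1.21 (SE 0.37, adjusted p = 0.0149). Ccng1 was lower with NanogBiD by 0.65 on the log2 scale at D10 (147 and 187 against 243 and 279 FPKM, adjusted p = 0.0420) and by 1.06 at D12 (adjusted p = 0.00219). Without the first replicate the interaction was -0.97 (adjusted p = 0.150). The D10 call was lost without either replicate, and the fall with NanogWT to D7 was -0.38 and not called after quantile normalization. Zmat3 and Trp53inp1, high at D0 like Mdm2, were not called between D0 and D7 or D12. Trp53inp1 was at 51.4 and 57.5 FPKM at D12 with NanogBiD and 33.2 and 46.9 with NanogWT, and Zmat3 at 27.4 and 32.7 and at 32.0 and 37.3, all above the MEF libraries. Zmat3 was lower with NanogBiD at D5, at 25.4 and 26.1 against 40.2 and 34.6 FPKM without overlap, but did not pass (log2 difference of -0.52, SE 0.20, adjusted p = 0.0836). So the targets of p53 did not share one course.

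Cdkn1a was the member that separated the combinations earliest. Both peaked at D1, at 263 and 255 FPKM with NanogBiD and 389 and 377 with NanogWT. By D3 it had come to 188 and 163 against 254 and 320 FPKM, by D5 to 170.1 and 170.3 against 222 and 236, and by D7 to 148 and 139 against 198 and 177. In MEF it was at 128 and 197 and in mES at 145 FPKM. The NanogBiD libraries lay below the NanogWT libraries without overlap on each of the 8 days, D0 included (201 and 217 against 303 and 251). The share of all genes without overlap was not counted, and so few libraries can separate by chance on a single day. The log2 differences at D0, D1, D3, D5 and D7 were -0.40, -0.56, -0.70, -0.42 and -0.38, with adjusted p of 0.145, 0.0254, 0.00185, 0.0378 and 0.0403. At D10 it was at 123 and 121 against 266 and 264 FPKM, a log2 difference of -1.11 (SE 0.14, adjusted p = 1.07e-06), and at D12 at 111 and 133 against 213 and 190 (-0.72, adjusted p = 0.000184). The single NanogBiD library of D8 was at 114 FPKM against 241 and 232. Over D0 to D7, where depth was alike, the mean difference was -0.49 (SE 0.06, adjusted p = 3.20e-06), a contrast added after the data were seen. Leaving out either replicate ended the calls at D1, D5 and D7, with differences of -0.56 and -0.56, -0.47 and -0.38, and -0.35 and -0.42 in that order, and leaving out the second ended that at D3 (-0.43, adjusted p = 0.193). The calls at D10 and D12 were kept without either. Quantile normalization ended the D1 call, at -0.44, and cut the fall with NanogWT from D0 to D7 to -0.17 and to D12 to -0.21, neither called. Cdkn1a fell within both combinations from D0 to D7, by 0.54 and 0.56 on the log2 scale, and the falls did not differ (interaction of 0.02, SE 0.19), so the gap between the combinations was about as wide at D7 as at D0.

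Cdkn2a rose in both combinations but at different times. At D0 the 4 libraries were at 17.3, 16.6, 18.0 and 18.1 FPKM, and MEF at 22.6 and 20.4. At D1 NanogBiD was at 25.2 and 20.8 FPKM and NanogWT at 25.1 and 36.9, with overlap (log2 difference of -0.39, not called). With NanogBiD Cdkn2a went to 51.8 and 32.8 FPKM at D3 and 75.8 and 69.3 at D5, and by D7 stood at 47.0 and 66.8, while with NanogWT it stood at 21.3 and 34.7, 21.6 and 34.3, and 29.4 and 32.5. The libraries overlapped at D3 and not at D5 or D7, where NanogBiD was higher by 1.38 (SE 0.26, adjusted p = 0.00084) and 0.84 (SE 0.26, adjusted p = 0.0199) on the log2 scale. At D8 NanogBiD was at 71.8 and NanogWT at 52.3 and 64.1 FPKM. At D10 the order was turned, with 40.0 and 35.5 FPKM against 70.1 and 68.0 (log2 difference of -0.86, adjusted p = 0.00866), and at D12 with 35.0 and 27.0 against 56.6 and 43.8 (-0.68, adjusted p = 0.0354). The mES library was at 38.4 FPKM. The difference changed by -2.24 between D5 and D10. These days were picked for this crossing after the values were seen, so that value restates it and is no test of it. In the same contrast 5 of 10 members passed, Cdkn2a included, where 39.4% of all genes were called. The calls of single days were not kept by every fit that left out a replicate. Without the first replicate the D5 difference was 0.99 (adjusted p = 0.141), without either the D7 difference was 1.02 or 0.66 and was not called, and the D10 and D12 differences were -0.92 and -0.79 and -0.68 and -0.68, none called. From D0 to D7 Cdkn2a rose by 1.67 (adjusted p = 3.24e-05) with NanogBiD and 0.74 (adjusted p = 0.0290) with NanogWT, and from D0 to D12 by 0.82 and 1.41. The rise with NanogWT to D7 was not called without either replicate (0.81 and 0.68), nor that with NanogBiD to D12 without the first (0.67). Neither difference between these rises was called (interactions of 0.92 and -0.60, adjusted p = 0.0986 and 0.219). The gene table gives 1 value for the whole locus, so p16Ink4a and p19Arf are not separated here.

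**Figure D2:**
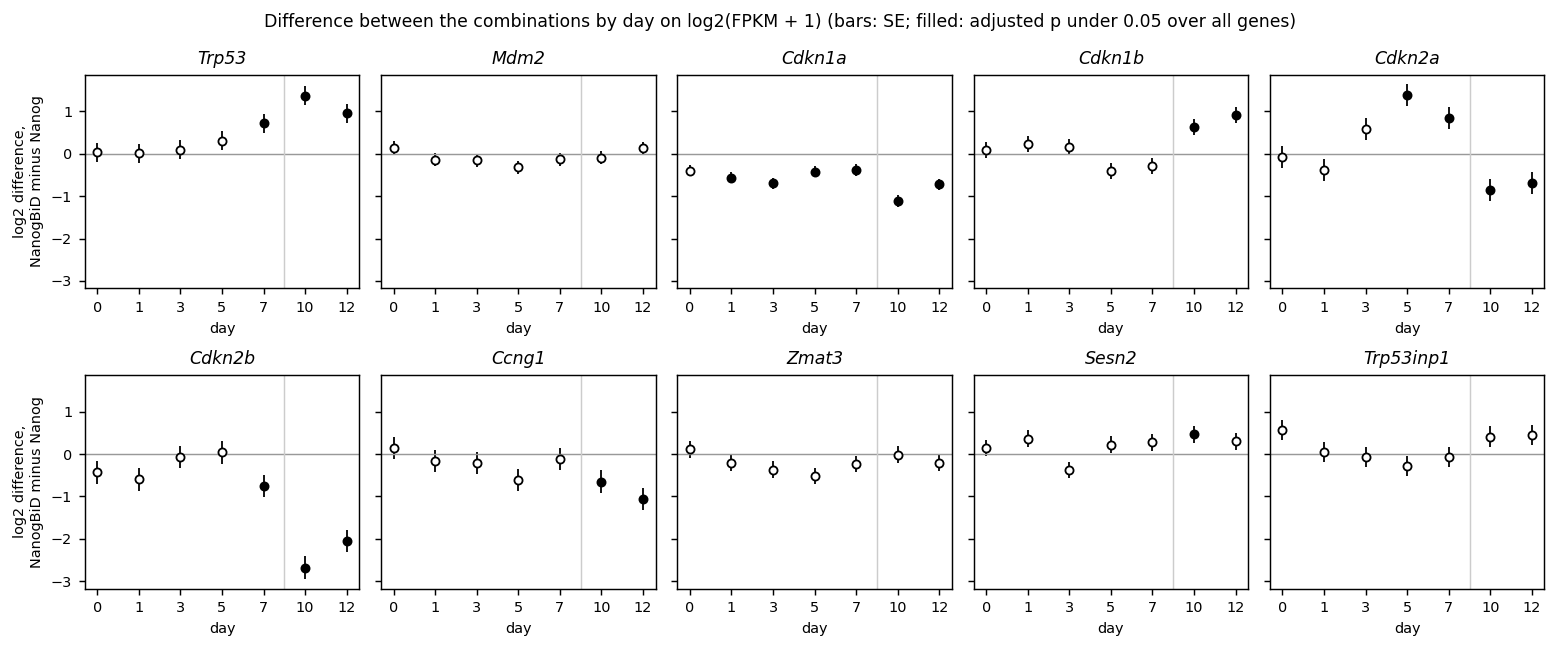
Log2 difference of NanogBiD minus NanogWT for each of the 10 members (vertical axes, log2(FPKM + 1) scale, bars are standard errors) on the 7 days with 2 libraries per combination (horizontal axes, days evenly spaced); filled points passed an adjusted p under 0.05 over all genes tested, and the vertical grey line marks the change of medium. Cdkn1a is below 0 throughout, Cdkn2a turns from 1.38 at D5 to -0.86 at D10, and Cdkn2b reaches -2.68 at D10.

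Cdkn2b, the neighbour of Cdkn2a, did not share its rise from D0 to D7. It was at 8.37 and 9.32 FPKM with NanogBiD at D7 and at 17.4 and 13.97 with NanogWT, and had fallen from D0 in both (log2 differences of -1.14 and -0.82, the latter not called without either replicate). After D7 it stayed low with NanogBiD, at 11.8 FPKM at D8, 5.37 and 5.49 at D10 and 5.90 and 6.37 at D12, near the 3.51 of mES. With NanogWT it returned to 33.8 and 37.2 at D8, 36.3 and 44.4 at D10 and 32.2 and 25.2 at D12, below the 52.2 and 51.9 of MEF. On these days Cdkn2a with NanogWT also stood above its D7 level, at 52.3 and 64.1 FPKM at D8. The log2 differences of Cdkn2b between the combinations were -0.76 (adjusted p = 0.0388) at D7, -2.68 (SE 0.27, adjusted p = 8.61e-08) at D10 and -2.05 (SE 0.27, adjusted p = 2.86e-06) at D12. The D7 call was lost without either replicate (-0.54 and -0.98), and those of D10 and D12 were kept. The change from D0 to D12 was -1.61 with NanogBiD and 0.01 with NanogWT, an interaction of -1.62 (SE 0.38, adjusted p = 0.00225), which was -1.49 (adjusted p = 0.0544) without the second replicate. Fibroblast markers moved the same way: their sum was 361 and 452 FPKM with NanogBiD at D10 and 2657 and 2703 with NanogWT, and all 6 were lower with NanogBiD at D7, D10 and D12. Their part in the Cdkn2b, Cdkn1a and Ccng1 results was not tested. In bulk samples such as these, fewer cells of a type and less RNA per cell cannot be told apart.

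Trp53 went the other way. It was within 27.7 to 60.0 FPKM in all libraries of D0 to D7, with NanogBiD higher at D7 (49.0 and 54.0 against 32.4 and 29.5 FPKM, log2 difference of 0.72, adjusted p = 0.0203). It then stood at 97.4 FPKM at D8, 106 and 80.0 at D10 and 106 and 72.3 at D12 with NanogBiD, between MEF and the 143 of mES, and at 31.9 to 50.7 with NanogWT. The log2 differences were 1.37 (SE 0.22, adjusted p = 3.36e-05) at D10 and 0.95 (SE 0.22, adjusted p = 0.00146) at D12. The rise from D0 to D12 was 0.93 with NanogBiD and 0.01 with NanogWT, with an interaction of 0.91 (adjusted p = 0.0286). The D10 call was kept without either replicate, and the D7 call was lost without either (0.85 and 0.58). Without the first replicate the D12 difference was 0.51 (adjusted p = 0.206) and the interaction 0.14 (adjusted p = 0.831). Cdkn1b was not called between the combinations up to D7 and stood at 17.0 FPKM with NanogBiD at D8 against 22.5 and 22.4. It then rose with NanogBiD, to 41.3 and 28.8 FPKM at D10 and 40.2 and 35.5 at D12, against 23.1 and 21.0 and 23.4 and 16.3 with NanogWT. Its log2 differences were 0.63 (adjusted p = 0.00897) and 0.91 (adjusted p = 0.000523), with an interaction of 0.82 (adjusted p = 0.0226) for D12 against D0. Without the first replicate the D10 difference was 0.44 (adjusted p = 0.195), and without the second the interaction was 0.60 (adjusted p = 0.201). In MEF it was at 29.4 and 19.9 FPKM and in mES at 28.8. Sesn2 was at 38.7 and 49.0 FPKM at D10 with NanogBiD against 29.0 and 33.9 (log2 difference of 0.46, adjusted p = 0.0498). That call was lost after rescaling to a common total (0.38), after quantile normalization (0.45), with a pseudocount of 0.1 (0.47) and without either replicate (0.52 and 0.41). At D12 it was at 32.5 and 44.1 against 32.3 and 29.1 FPKM and was not called. Within NanogBiD it rose from D0 to D12 by 0.55 (adjusted p = 0.0202), and by 0.30, not called, without the second replicate.

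Counted over the members, none passed in limma between the combinations at D0 (1.91% of all genes tested were called), where 2 members, Cdkn1a and Trp53inp1, had an unadjusted p under 0.05. The count was 1 of 10 at D1 (3.27%), 1 at D3 (10.1%), 2 at D5 (16.4%), 4 at D7 (28.4%), 7 at D10 (55.6%) and 6 at D12 (50.7%). With 10 members these counts lie near those percentages. Over the mean of D0 to D7, 4 passed (36.0% of all genes): Cdkn1a, Cdkn2b (-0.36) and Zmat3 (-0.25) were lower and Cdkn2a (0.46) was higher with NanogBiD. Within combinations, 5 of 10 passed from D0 to D7 with NanogBiD (43.8% of all genes) and the same 5 with NanogWT (38.7%), with Cdkn2a higher and Mdm2, Ccng1, Cdkn1a and Cdkn2b lower in each. From D0 to D12, 8 passed with NanogBiD (4 higher, 4 lower, 61.7% of all genes) and 4 with NanogWT (1 higher, 3 lower, 38.1%). The interaction passed for none at D7 (15.9% of all genes) and for Ccng1, Cdkn1b, Cdkn2b and Trp53 at D12 (37.1%). At D7 Cdkn2a and Trp53 had an unadjusted p under 0.05 in it. The median over all genes lay at 0.24 and 0.12 for D7 against D0 and at 0.34 and 0.19 for D12 against D0, and quantile normalization moved the D7 median of NanogBiD to -0.01.

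The rest of the pathway was read from lists, whose counts stand against the percentages of all genes called that are given above for each day (16.4% at D5, 28.4% at D7, 55.6% at D10 and 50.7% at D12). Of 11 regulators of p53 (such as the kinases Atm, Atr, Chek1 and Chek2), none passed between the combinations up to D5. At D7 3 were higher with NanogBiD, and at D10 8 were higher and 1 lower, with Chek1 at 2.29 and Chek2 at 1.78 and a list median of 0.67 against 0.10 over all genes. Proliferation markers moved with them: 7 of 8 were higher with NanogBiD at D7 and 8 of 8 at D10 and D12, with Top2a at 2.86 and Ccnb1 at 2.82 at D10. Their sum was 712 and 742 FPKM at D10 against 121 and 201 with NanogWT, and 985 in mES. Of the 11 apoptosis genes, 2 were higher and 2 lower at D10, where 55.6% of all genes were called, with Fas at -2.94 and Pmaip1, which encodes the BH3-only protein Noxa, at 1.59 after 3.00 at D7. Of the 14 genes of arrest, repair and stress, 4 were higher and 4 lower at D10, led by Ddit4 at 2.54, an inhibitor of mTORC1 that hypoxia and other stresses also induce. From D0 to D12, 4 of the 11 apoptosis genes fell in each combination, among them Eda2r by 2.12 and 1.86. Over the same days 61.7% of all genes were called with NanogBiD and 38.1% with NanogWT. Of the 16842 tested, 3186 and 1805 were lower. Of the 12 genes of the CDK and Rb axis, 2 were lower at D3, Ccnd1 by 1.21 and Ccnd3 by 0.65, and at D10 6 were higher and 2 lower, led by the Rb relative Rbl1 at 1.37 and by E2f1 at 1.22. Of 11 tested regulators of the Ink4a-Arf locus, Tbx2 and Id1 were higher with NanogBiD at D5, by 1.48 and 1.16. At D10 4 were higher and 4 lower, with the Polycomb methyltransferase Ezh2 at 2.37. Of the 3 other inhibitors of this kind, Cdkn1c was lower at D7 (-0.79) and higher at D10 (0.55), and none passed at D12. Of 10 tested secretory genes of senescent cells, 2 were lower with NanogBiD at D1, led by Igfbp3 at -2.13, 6 were lower and 1 higher at D7, and 8 were lower at D10, with Ccl7 at -4.22, Ccl2 at -3.99 and Mmp13 at -3.46 and a median of -2.01. Igfbp7 was higher with NanogBiD by 2.81 at D5 and 2.00 at D7. Several of these secreted proteins are also made by fibroblasts that are not senescent.

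**Figure D3:**
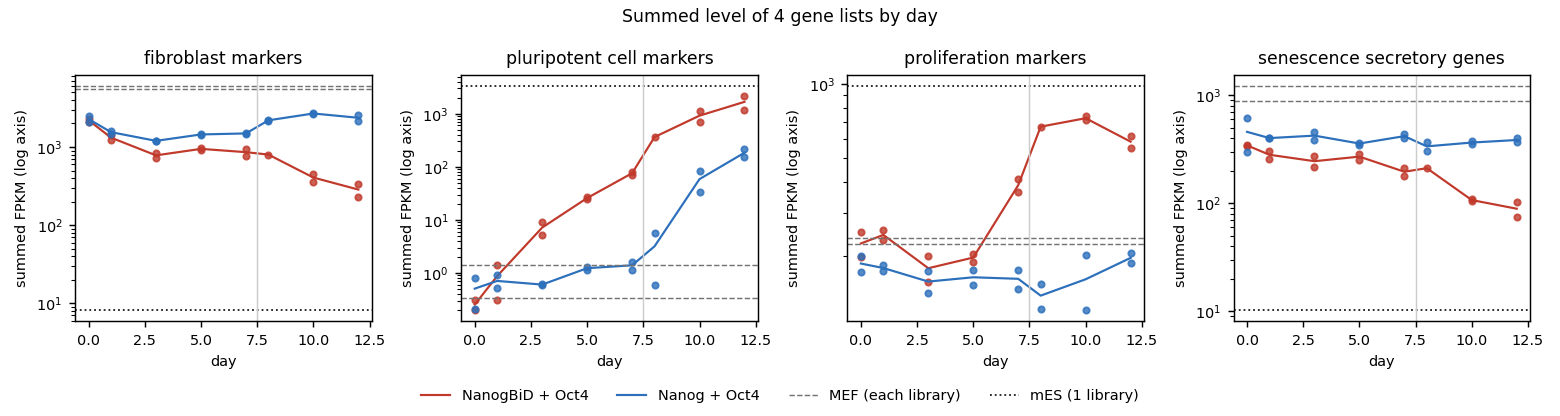
Summed FPKM (log axes) of the fibroblast markers, pluripotent cell markers, proliferation markers and secretory genes of senescent cells by day, with 1 point per library, lines through the means, dashed lines for the 2 MEF libraries and a dotted line for mES. At D10 the NanogBiD sums are 361 and 452 FPKM for fibroblast markers, against 2657 and 2703 with NanogWT, and 712 and 742 for proliferation markers, against 121 and 201.

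The pluripotent cell markers put these values on the path to iPSC. Their sum reached 1195 and 2149 FPKM with NanogBiD at D12 and 154 and 214 with NanogWT, against 3364 in mES, and all 6 were higher with NanogBiD at D7, D10 and D12. Epithelial markers did likewise, with 3 of 4 higher at D7 and 4 of 4 at D10 and D12. Of 2 tested endothelial markers, Pecam1, which is also made by pluripotent cells, was higher (2.96) and Kdr lower (-0.97) at D10. No macrophage marker passed at D10 or D12, where their sum was 2.26 to 9.04 FPKM. In NanogWT cultures at D12 the sum of fibroblast markers (2172 and 2553 FPKM) was no lower than at D0.

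Each course can also be placed by the genes that followed it most closely, given as Pearson r over the 31 time-course libraries, which share days and groups. Trp53 ran with Cct2, a subunit of the chaperonin TRiC (r = 0.947), and with H2ax (r = 0.943), listed under an older symbol as well. Mdm2 ran with Acot9 (r = 0.940) and Eda2r (r = 0.936), itself a target of p53, and Gpr149 (r = 0.932). Cdkn1a ran with Slco3a1 (r = 0.947), St3gal1 (r = 0.912) and Tmem43 (r = 0.907). Cdkn2a ran with Sema3b (r = 0.911), Cpm (r = 0.890) and the homeobox gene Nkx6-1 (r = 0.877), and Cdkn2b with Cavin3 (r = 0.925), also under its older symbol, and Lhfp (r = 0.922). Among the members, Mdm2 and Ccng1 had r = 0.836, Cdkn1a and Cdkn2b 0.843, and Mdm2 and Cdkn2a -0.760. Trp53 and Mdm2 had -0.043.

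In established iPSC the members did not separate the combinations. No member, and no gene of the 12456 tested (0% called), passed between 6 NanogBiD and 6 NanogWT samples in limma with the line as covariate. An unadjusted p under 0.05 was found for 201 genes, which is below a share of 0.05 of those tested. The lack of calls does not show that the combinations were alike. Samples 1 and 1-2 of NanogWT line iPSC1 share a clone number and may not be independent, and with their mean taken as 1 sample no member was called either. No other alternative tried called a member. The log2 differences of the members were -0.16 to 0.30, with standard errors of 0.09 to 0.42. Trp53 was at 205 to 291 FPKM in NanogBiD iPSC (median 263) and 207 to 291 in NanogWT iPSC (median 271). Cdkn1a was at 73.2 to 84.3 (median 78.3) and 67.8 to 111 (median 81.4). The curated Trp53 transcripts made up 54.9% and 40.2% of the gene (medians over the 12 samples). This table was quantified apart from the gene table, and levels are not set across them.

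Against MEF, the iPSC of both combinations together had 7 of 10 members called (69.5% of 13312 genes were). Trp53 was at 78.0 and 76.9 FPKM in MEF, below all 12 iPSC samples, a log2 difference of 1.71 (SE 0.14, adjusted p = 6.61e-08). Trp53inp1 was at 14.1 and 13.0 in MEF and 43.4 to 68.3 in iPSC (1.83, adjusted p = 2.95e-08), and Sesn2 at 28.7 and 31.6 and 44.0 to 75.7 (0.89, adjusted p = 3.76e-05). Neither overlapped. In mES these 3 were at 174, 34.5 and 30.1 FPKM, so that all 12 iPSC samples lay above mES in each. Cdkn2b was lower in iPSC than in MEF, with a log2 difference of -3.02 (SE 0.65, adjusted p = 0.000793), with 42.5 and 43.5 FPKM in MEF and a range of 1.30 to 25.3 in iPSC. Ccng1 (-0.84), Cdkn1a (-0.55) and Cdkn1b (-0.66) were lower too. The Ccng1 and Cdkn1a calls were lost without the second MEF sample (-0.48 and -0.21) and the Cdkn1b call without the first (-0.45). Mdm2 (0.23), Zmat3 (0.04) and Cdkn2a (-0.16) were not called. Around the members, 9 of 11 p53 regulators were higher in iPSC, led by Chek2 at 2.41 and Chek1 at 2.30. Of the p53 targets, 4 of 11 apoptosis genes were higher and 2 lower, and 5 of 14 genes of arrest, repair and stress were higher and 4 lower, with Tigar at 2.37. Cdkn1c (-3.94) and Cdkn2c (-2.31) were lower among the 3 other inhibitors. Of the 12 genes of the CDK and Rb axis 6 were higher and 2 lower, of 12 tested locus regulators 4 and 4, of 9 tested secretory genes none and 8, and of 8 proliferation markers 7 and none. The iPSC carried their label: all 6 pluripotent cell markers were above 1 FPKM in all 12 samples.

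**Figure D4:**
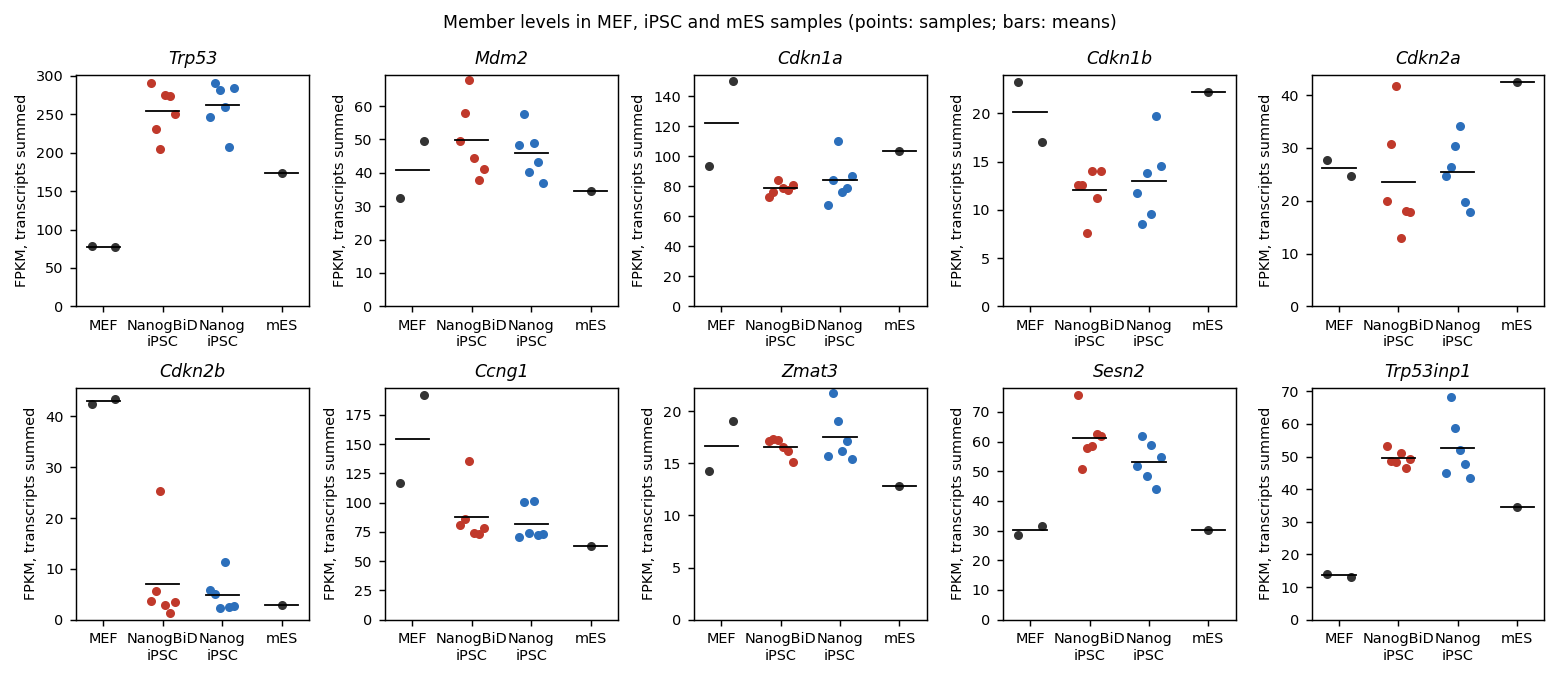
FPKM of each member with its transcripts summed (vertical axes) in 2 MEF, 6 NanogBiD iPSC, 6 NanogWT iPSC and 1 mES sample (horizontal axes), with 1 point per sample and a bar at the mean. The iPSC points of Trp53, Trp53inp1 and Sesn2 all lie above MEF, and the NanogBiD iPSC sample at 25.3 FPKM of Cdkn2b lies apart from the other 5 at 1.30 to 5.66.

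The iPSC table separates the p16Ink4a and p19Arf transcripts of Cdkn2a, which share 575 exon bases and differ by 277 and 320 bases of their own, so part of the reads cannot be assigned to one of them. p19Arf was at 18.4 and 17.4 FPKM in MEF, 12.5 to 31.3 in iPSC and 42.4 in mES. p16Ink4a was at 9.42 and 7.26 FPKM in MEF, listed at 0 in mES and in 3 of 12 iPSC samples, below 4 FPKM in 7 others, and at 10.4 and 12.7 in the remaining 2. p16Ink4a made up 33.9% and 29.5% of the locus in the MEF samples, 0% to 37.3% in iPSC with a median of 6.32%, and 0% in mES. Against MEF, neither passed: p16Ink4a differed by -1.81 (SE 0.91, adjusted p = 0.151) and p19Arf by 0.21 (SE 0.27, adjusted p = 0.583). Of the 18 member transcripts tested, 8 passed (5 higher, 3 lower; 34.2% of all transcripts): both curated Trp53 transcripts (1.99 and 1.30), both of Trp53inp1 (1.79 and 1.62) and that of Sesn2 were higher, and those of Cdkn2b, Ccng1 and the downstream start of Cdkn1a (-0.54) were lower. The downstream Cdkn1a transcript made up 76.3% to 94.8% of the gene in iPSC and 84.3% and 90.8% in MEF, so the upstream start gave the smaller part in every sample. The p53 element shown above lies before both starts, but outside the window searched at the downstream start. Its part in either transcript was not tested. The upstream transcript differed by -0.71 (adjusted p = 0.276). Cdkn1b has a single transcript, with the same difference of -0.66 in both limma tests. It was called over genes (adjusted p = 0.0281) and not over transcripts (adjusted p = 0.0660).

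The 2 iPSC samples with p16Ink4a at the level of MEF were sample 9 of NanogBiD line iPSC1 and sample 3 of NanogWT line iPSC1. They also had the highest Cdkn2b, at 25.3 and 11.4 FPKM against 1.30 to 5.84 in the other 10, and the highest Ccng1, at 136 and 102 against 70.9 to 100.3. The same 2 samples had the highest sums of fibroblast markers, at 1347 and 422 FPKM, against 2.56 to 147 in the others and 6568 and 6203 in MEF, and of secretory genes, at 424 and 152 against 3.88 to 67.2. Pluripotent cell markers summed to 1681 and 2746 FPKM in them, against 2442 to 4880 in the others, and Trp53 was at 205 and 259, above both MEF samples. The part of the fibroblast RNA in these values was not tested. Without sample 9, the Cdkn2b difference of iPSC from MEF was -3.24 (adjusted p = 1.55e-05) and no member call changed. The 2 lines also differ in passage by the column headers. Cdkn2a was at 19.9 to 41.7 FPKM in the 7 samples of iPSC1 and 12.9 to 19.7 in the 5 of iPSC2. These ranges did not overlap but came close, at 19.93 and 19.73 FPKM. The highest 2 values, 41.7 and 34.2 FPKM, were those of samples 9 and 3. Mdm2 was at 40.2 to 67.7 FPKM in iPSC1 and 36.8 to 44.6 in iPSC2. No difference between the lines was tested, and the share of all genes without overlap was not counted.

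**Figure D5:**
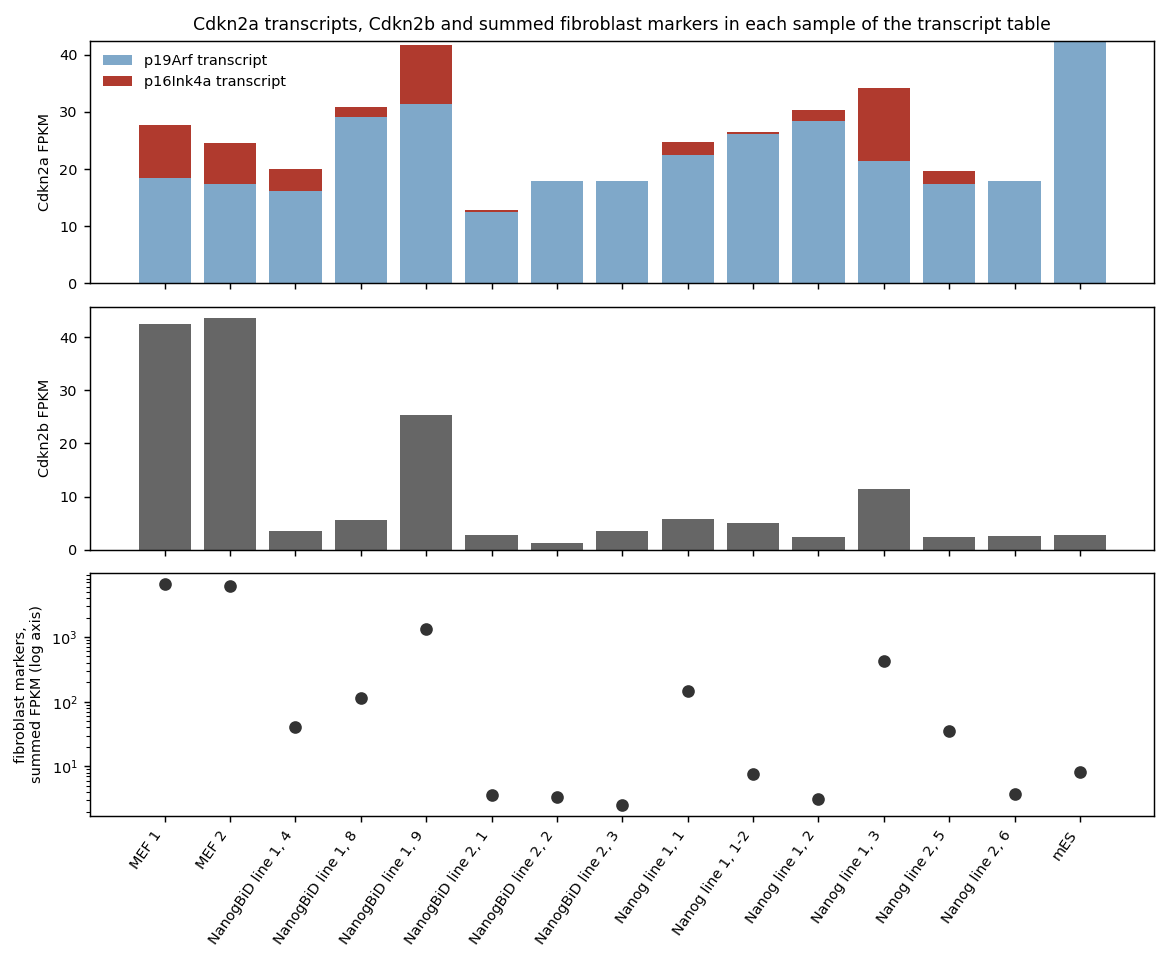
FPKM of the p19Arf and p16Ink4a transcripts of Cdkn2a (stacked bars), FPKM of Cdkn2b (bars) and summed FPKM of the 6 fibroblast markers (points, log axis) in each of the 15 samples of the iPSC table (horizontal axis). The samples labelled 9 and 3 of the iPSC1 lines have p16Ink4a at 10.4 and 12.7 FPKM, Cdkn2b at 25.3 and 11.4, and fibroblast sums of 1347 and 422.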

How the data were processed

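RNA of 34 libraries of the gene table and 15 samples of the transcript table was sequenced. By the submitters' processing notes, the authors trimmed reads with Trim Galore 0.6.4, aligned them to mm10 with HISAT2 2.2.1 and quantified them with StringTie 2.2.1, and the deposited values are FPKM. The annotation and the use of strand are not given in the sources used here, and the tables were quantified separately. Raw counts were not used here. Relative depth of the gene table was read from the steps of low values, and that of the transcript table is unknown. Groups came from the sample labels. Transcripts were summed per gene for the iPSC comparisons.

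Values were tested as log2(FPKM + 1) with limma 3.58.1 (R 4.3.3; empirical Bayes with trend) after a filter of at least 1 FPKM in at least 2 samples, two-sided, with Benjamini-Hochberg adjustment over all genes or transcripts tested and a threshold of 0.05. Fold changes on this scale understate changes of low genes. The 31 time-course libraries were fitted together with a mean per combination and day, and MEF were added for the comparisons with them. The mES sample entered no fit. iPSC of both combinations were compared with the line as covariate. NanogBiD at D8 has 1 library and no test. The scripts were tested on simulated data. All 10 members are named in every comparison, and of each list up to 3 called genes with the largest difference. The members and lists were chosen with earlier results of these data known. Alternatives were a 2-fold limit, a pseudocount of 0.1, no filter, a common total, quantile normalization, a replicate block, fits on the compared groups alone and leaving out each replicate. Sequences are from RefSeq. The main fits did not pair samples by replicate number. Figures and numbers were made with Python 3.11.15, numpy 2.4.6, pandas 2.3.3 and matplotlib 3.10.9.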

Additional observations from a re-analysis of the deposited data

Results flagged for a closer look

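In groups of 6 iPSC samples, 1 sample stood apart from the others in 6 of 52 groups tested for a member or transcript, by the gap to its nearest neighbour as a share of the whole range; chance flags about 1 in 20 groups, and the groups are not independent, since a gene and its main transcript can hold the same reads. Sample 9 of NanogBiD line iPSC1 gave 4 of them: Cdkn2b at 25.3 FPKM against 1.30 to 5.66 (share 0.818), Ccng1 at 136 against 73.4 to 86.0 (0.798), the main Ccng1 transcript, which is nearly all of that sum, at 135 (0.802) and the p16Ink4a transcript of Cdkn2a at 10.4 against 0 to 3.78 (0.635). Among NanogWT iPSC, p16Ink4a of Cdkn2a was at 12.7 FPKM in sample 3 of line iPSC1 against 0 to 2.32 (0.818), and a predicted Mdm2 transcript at 4.94 FPKM in sample 1-2 of that line against 0.419 to 0.986 (0.875). The fibroblast marker sums of samples 9 and 3 stand with these values in the report.

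The change from D0 to D12 differed between the combinations by the interaction for Ccng1 (-1.21), Cdkn1b (0.82), Cdkn2b (-1.62) and Trp53 (0.91). The change of the difference between the combinations from D5 to D10 passed for Cdkn1a (-0.69), Cdkn1b (1.04), Cdkn2a (-2.24), Cdkn2b (-2.72) and Trp53 (1.05). The days D5 and D10 were picked for the crossing of Cdkn2a after its values were seen, so its value restates that crossing.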

How the results depend on the processing

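Of 1804 member values recomputed under an alternative, 1627 kept the side of the threshold, and 158 lost and 19 gained a call. No value called in the main or the alternative fit changed sign. For values called in neither, the sign was not checked. With a limit of at least 2-fold, the counts of members called were 0 at D1, D3 and D7, 1 at D5, 3 at D10, 2 at D12, 2 for NanogWT D0 against MEF, 1 for NanogWT D7 and 4 for NanogBiD D12 against D0, 2 for the D12 interaction, 0 for the mean of D0 to D7, 3 for iPSC against MEF and 5 of its transcripts. Fitted on the compared groups alone, 0 members passed at D1, D3 and D5, 1 at D7, 3 for NanogBiD and 0 for NanogWT at D0 against MEF, 1 for NanogWT D7 and 2 for NanogWT D12 against D0, and 1 for the D12 interaction; fewer samples then set the spread. Quantile normalization left 0 at D1 and 2 for NanogWT D12 against D0. Without replicate 1 or 2 the counts were 0 and 0 at D1, 0 to 1 at D5, 0 and 0 at D7, 3 to 4 at D10, 3 to 4 for NanogWT D7 against D0, 2 and 2 for the D12 interaction and 2 to 3 for the D10 against D5 interaction. The cause of these moves was not tested.

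The replicate numbers of the labels were tried as a block. Same-numbered libraries of the combinations deviated together at some days only, with r of -0.065 to 0.395 over genes. The labels do not say what a shared number stands for. Ccng1 and Zmat3 were higher in replicate 2 than in replicate 1 in both combinations on every day with 2 libraries each except D5. With the replicate block, 4 members passed at D5 in place of 2 (Ccng1 and Zmat3 added) and 7 for NanogWT D0 against MEF in place of 6 (Zmat3 added). No other count of members changed with the block.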
